A study of Mus musculus with 4 samples.

Results

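The genes described here add or remove the O-linked sulfate groups of heparan sulfate: the 2-O-sulfotransferase Hs2st1, the 6-O-sulfotransferases Hs6st1, Hs6st2 and Hs6st3, the 3-O-sulfotransferases Hs3st1, Hs3st3a1, Hs3st3b1 and Hs3st6, and the extracellular 6-O-sulfatases Sulf1 and Sulf2. They were chosen by name, as genes of one step of the pathway, and found through the transcript accession in the probe set identifiers. Each of the 10 genes had 1 probe set, out of 909 named genes and 1246 probe sets on the array.

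Heparan sulfate is a long sugar chain carried by core proteins such as syndecans, glypicans and perlecan. Its chain is built in the Golgi, then partly N-sulfated and epimerised, after which sulfate is added at the 2-O position of uronic acids and at the 6-O and 3-O positions of glucosamine. The position of these groups decides which growth factors, chemokines and clotting inhibitors the chain can bind. Sulf1 and Sulf2 act after secretion and cut 6-O-sulfates from finished chains at the cell surface and in the matrix.

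RNA came from wild-type mouse vascular smooth muscle cells (VSMC), which give arteries their tone, and was measured on 4 arrays. Controls included, all cells grew in an osteogenic medium, a medium used to drive cells toward a bone-like state. Streptozotocin, a glucosamine-containing nitrosourea toxic to pancreatic beta cells, was given at 0.4 mM to the cells of 2 arrays, and the other 2 arrays are controls without it. WTA (replicate 2) and WT2 (replicate 1) are the names of the cells, each measured once with and once without streptozotocin, and are taken as a culture each. All sample names also carry the mark 3w, which the labels do not explain and which is not read here as a time or an age. Whether WTA and WT2 are cells of separate animals is not in the labels, and the p-values measure only the spread between these arrays, which may be technical. The main streptozotocin test also counts the difference between WTA and WT2 as spread. None of 10 smooth muscle markers looked for, such as Acta2 and Myh11, and none of 8 bone markers was among the named probe sets, so neither state could be checked.

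Values are RMA log2 expression values, so a difference of 1 is a 2-fold difference. The arrays' medians lay between 5.83 and 5.87 and their lower quartiles between 4.39 and 4.4, and 4 arrays limit the precision. The control array of WT2 stood apart most, with correlations of 0.977 and 0.982 to the WTA arrays, which correlated at 0.997 with each other. Brightness also depends on a probe set's own probes, so the position of a gene among all probe sets is given only to show how far it stood from the dim end. In bulk RNA, fewer cells of a type and less RNA per cell cannot be told apart.

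On the 4 arrays, Sulf1 and Hs6st2 stood above the upper quartile of probe sets, with means of 9.44 and 8.91. Hs6st1 (7.92), Hs2st1 (7.85) and Hs3st1 (6.65) stood above the median of all probe sets. Sulf2 (5.73), Hs3st3a1 (5.72), Hs3st6 (5.11) and Hs3st3b1 (4.94) stood between the lower quartile and the median, and Hs6st3 (4.12) stood below the lower quartile. Background holds part of the signal of such dim probe sets, which compresses their differences.

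**Figure D1:**
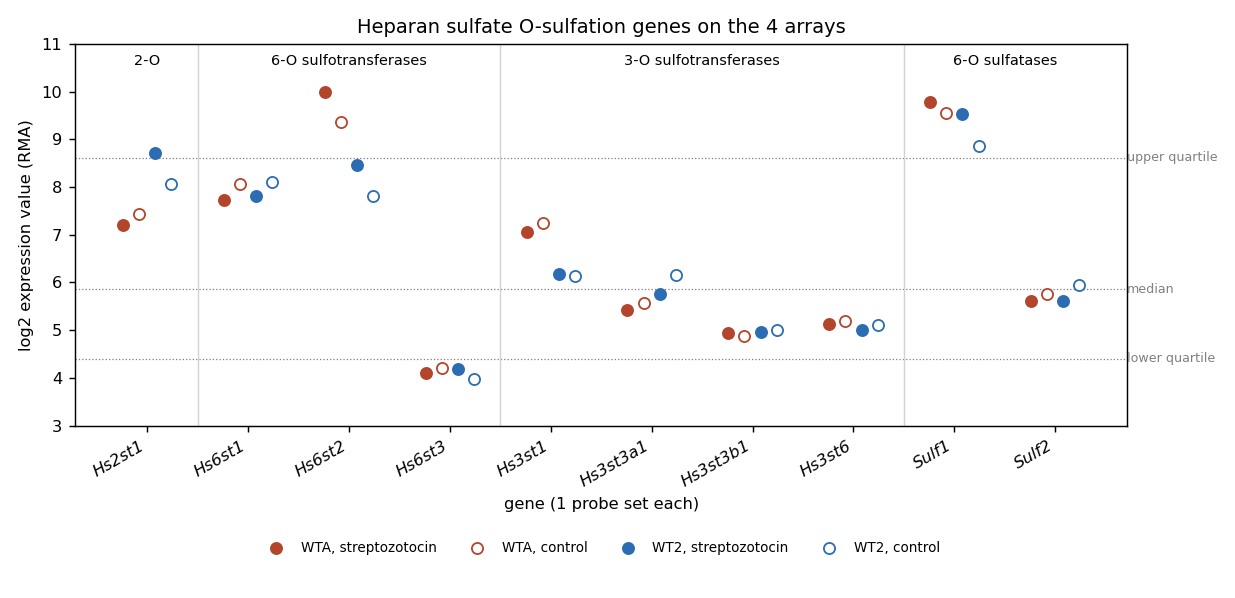
Log2 expression value (y axis) of each gene's probe set on each of the 4 arrays, with genes grouped by the reaction they catalyse; filled points are streptozotocin arrays, open points control arrays, red WTA and blue WT2. Dotted lines are quartiles of the means of all probe sets. The cultures separate most at Hs6st2, Hs2st1 and Hs3st1, and Hs6st3 lies below the lower quartile on every array.

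WTA was first compared with WT2, with the treatment as a further term. Hs6st2 was 2.90-fold higher and Hs3st1 2.00-fold higher in WTA than in WT2. These were the members that passed the test (limma, adjusted p under 0.05 over all 1246 probe sets): 2 of 10 higher in WTA, where 1.44% of all probe sets were called higher, and 0 of 10 lower, where 0.803% were called lower. The p-values rest on how alike the difference was in the streptozotocin and the control arrays (1 residual degree of freedom). They rest more on a spread that limma shares over all probe sets (2.73 prior degrees of freedom), and hold no spread between cultures of a kind.

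Hs6st2 transfers sulfate to the 6-O position and differs from its relatives in the stretches of chain it prefers. Its log2 value in WTA was 9.996 with streptozotocin and 9.37 in control cells. In WT2 it was 8.47 with streptozotocin and 7.82 in control cells. Both WTA values thus lay above both WT2 values, with no overlap. The difference WTA minus WT2 was 1.54 (SE 0.09, 95% interval 1.27 to 1.80, limma adjusted p = 0.0264). It was 1.53 between the streptozotocin arrays and 1.55 between the control arrays. By size it ranked above 98.6% of all probe sets. The call was lost in the limma fit with the culture alone (adjusted p = 0.185), among the brighter probe sets only (adjusted p = 0.0620) and with 1 array left out (difference 1.21 to 1.86, adjusted p = 0.110 to 0.789). With 3 arrays the treatment term had to be dropped too, so those values change both choices at once.

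The other 6-O-sulfotransferases had culture differences near 0. Hs6st1, the widely expressed member of the family, read 7.72 with streptozotocin and 8.06 in control cells of WTA. In WT2 it read 7.81 with streptozotocin and 8.10 in control cells. The cultures overlapped, and WTA minus WT2 was -0.07 (95% interval -0.34 to 0.20, limma adjusted p = 0.797). For Hs6st3, which lay between 3.98 and 4.21 on the 4 arrays, the difference was 0.07 (95% interval -0.28 to 0.43, limma adjusted p = 0.842).

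Hs3st1 is the 3-O-sulfotransferase known for making the rare site that antithrombin binds. Its log2 value in WTA was 7.07 with streptozotocin and 7.24 in control cells. In WT2 it was 6.17 with streptozotocin and 6.14 in control cells, so that the cultures stood apart and the arrays within each lay close together. WTA minus WT2 was 1.00 (SE 0.11, 95% interval 0.69 to 1.30, limma adjusted p = 0.0480), which lies just inside the threshold. In limma the adjusted p was 0.0695 after quantile normalization, 0.0798 among the brighter probe sets only, and 0.0749 to 0.532 with 1 array left out and the treatment term dropped (difference 0.91 to 1.08). With the treatment term dropped and all arrays kept it was 0.0417. The identifier of the Hs3st1 probe set carries the mark s, which can stand for probes shared between transcripts. Its separation from other transcripts is therefore uncertain.

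The remaining 3-O-sulfotransferases had lower levels and smaller culture differences. Hs3st3a1 and Hs3st3b1 make the 3-O-sulfated site known as the entry receptor of herpes simplex virus. Hs3st3a1 read 5.43 and 5.56 in WTA (streptozotocin and control) and 5.75 and 6.15 in WT2. The WTA values were the lower ones, and the difference was -0.45 (95% interval -0.78 to -0.12, limma adjusted p = 0.186), which did not pass. Hs3st3b1 lay between 4.88 and 5.01 on the 4 arrays, with a difference of -0.08 (95% interval -0.35 to 0.20). The catalytic parts of Hs3st3a1 and Hs3st3b1 are nearly identical. The identifier of Hs3st3a1 also carries the mark s, as that of Hs3st1 does, so the separation of Hs3st3a1 from Hs3st3b1 is uncertain. Hs3st6 lay between 5.01 and 5.20, with a difference of 0.11 (95% interval -0.16 to 0.37).

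Hs2st1 is the only 2-O-sulfotransferase of heparan sulfate, and its mark is needed for the binding of many fibroblast growth factors. Its sign was opposite to that of Hs6st2. Its log2 value in WTA was 7.21 with streptozotocin and 7.43 in control cells. In WT2 it was 8.72 with streptozotocin and 8.06 in control cells. The cultures did not overlap and WTA minus WT2 was -1.07, a size above that of 96.1% of probe sets, but the difference was -1.51 between the streptozotocin arrays and -0.63 between the control arrays. It did not pass the test (SE 0.25, 95% interval -1.77 to -0.36, limma adjusted p = 0.160).

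The sulfatases, which work against the 6-O-sulfotransferases, differed less. Sulf1 read 9.79 with streptozotocin and 9.55 in control cells of WTA. In WT2 it read 9.54 with streptozotocin and 8.86 in control cells. Both WTA arrays were above both WT2 arrays, at the closest 9.55 against 9.54, and the difference was 0.47 (95% interval 0.05 to 0.89, limma adjusted p = 0.259). Without the WT2 control array it was 0.13, and without the WT2 streptozotocin array 0.80. Sulf2 lay between 5.60 and 5.94, with overlapping cultures and a difference of -0.09 (95% interval -0.38 to 0.20, limma adjusted p = 0.737).

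**Figure D2:**
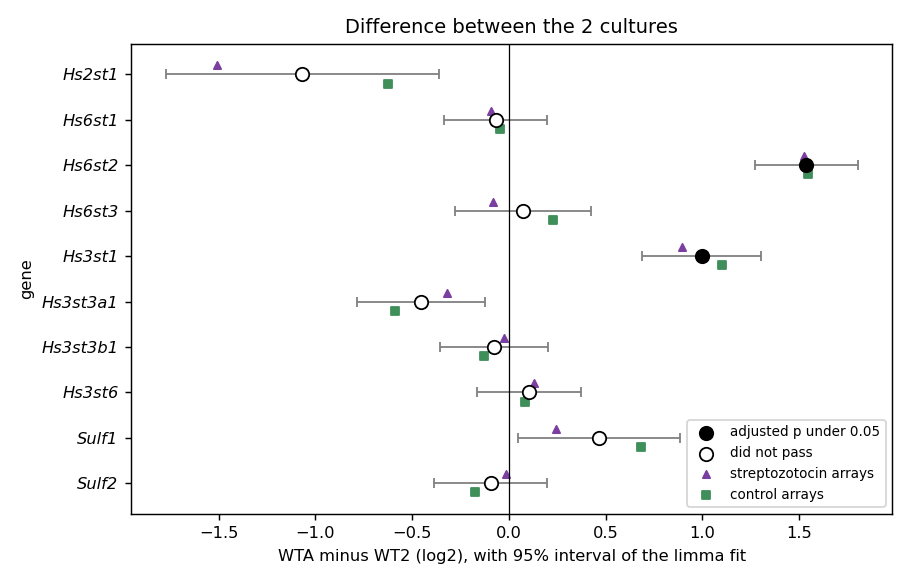
Difference WTA minus WT2 on the log2 scale (x axis) for each gene (y axis), from the limma fit with treatment and culture; large points are the fitted differences with their 95% intervals, filled where the adjusted p was under 0.05. Triangles give the difference between the streptozotocin arrays and squares that between the control arrays. Hs6st2 (1.54) and Hs3st1 (1.00) are filled, and Hs2st1 (-1.07) has the widest interval.

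The cultures did not overlap at 7 of the 10 genes. In 4 of these, Hs6st2, Hs3st1, Hs3st6 and Sulf1, both WTA arrays were higher, as in 21.3% of all probe sets. In the other 3, Hs2st1, Hs3st3a1 and Hs3st3b1, both were lower, as in 27.7%. For Hs3st6, Hs3st3b1 and Sulf1 the gap is at most a few hundredths of a log2 unit and says little. The median size of the culture difference was 0.28 over the 10 genes and 0.12 over all probe sets. The median with its sign was 0.00 and -0.02.

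**Figure D3:**
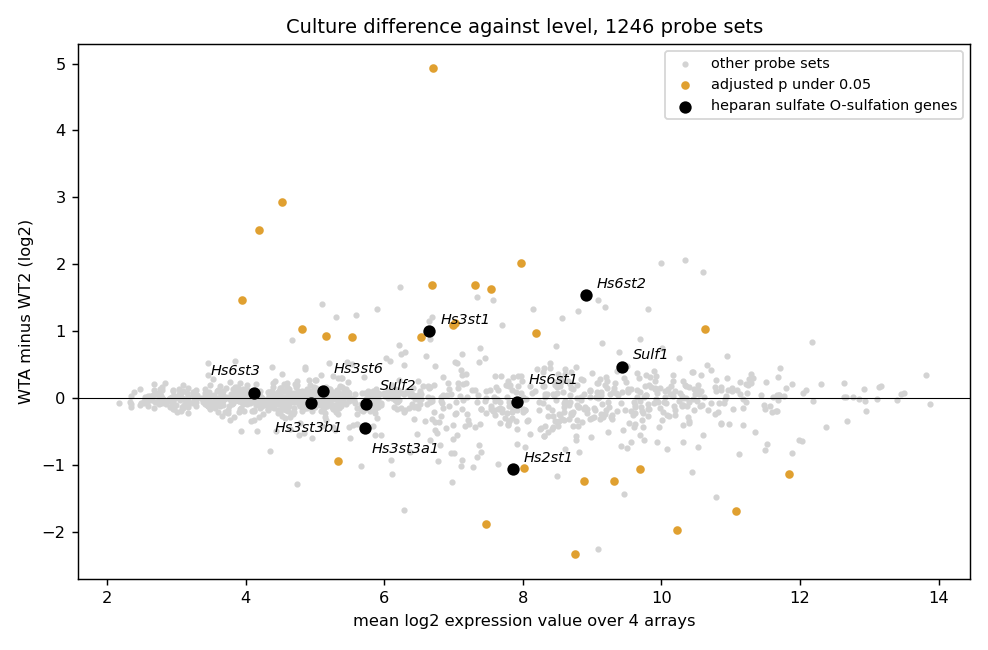
Culture difference WTA minus WT2 (log2, y axis) against the mean log2 value over the 4 arrays (x axis) for all 1246 probe sets; orange points passed at an adjusted p under 0.05 and black points are the 10 O-sulfation genes. Hs6st2 lies high at a mean of 8.91 and Hs2st1 low at 7.85, while the members below the lower quartile or just above it, such as Hs6st3 (0.07) and Hs3st3b1 (-0.08), lie near 0.

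Markers of other cells also differed between the cultures. Of 11 endothelial markers 4 were measured, all with higher means in WTA. Their values were summed off the log scale, so the brightest gene weighs most. The log2 of that sum was 9.63 and 9.26 in WTA (streptozotocin and control) and 6.76 and 6.50 in WT2. Nearly all of this difference between the cultures was Esm1 (WTA minus WT2 4.93, limma adjusted p = 0.00304). Selp read 6.93 and 6.275 in WTA (streptozotocin and control) and 5.98 and 5.65 in WT2. Its difference of 0.79 did not pass (limma adjusted p = 0.0897). The defining marker Pecam1 stood at 3.8 to 4.0 on every array, below the lower quartile. Of 6 fibroblast or adventitial markers 4 were measured, all with lower means in WTA. The log2 of their sum, taken in the same way, was 12.91 and 13.28 in WTA and 13.48 and 13.93 in WT2. Cd34 was called (-1.07, limma adjusted p = 0.0445). Of 15 leukocyte and macrophage markers 4 were measured, and the log2 of their sum lay between 7.68 and 8.12 on all arrays. The brightest, Csf1r, weighs most in that sum. It read 7.92 and 7.47 in WTA (streptozotocin and control) and 7.40 and 7.66 in WT2. The means of 3 of the 4 lay below the lower quartile, among them Adgre1 at 2.79 to 3.16, near the dimmest values. Whether such cells were present, and their part in the differences of Hs6st2 and Hs3st1, was not tested.

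The promoters of both called genes are shown because these genes differed between the cultures in the same direction. How alike the sequences are was not tested. The promoters come from RefSeq on build GRCm38.p6, which lists 2 for Hs6st2 and 1 for Hs3st1. Each runs from 250 bases before to 50 after the start. CG pairs, the sites that can be methylated, are in capitals. The first Hs6st2 promoter (chrX:51681553-51681852, minus strand) holds 12 CG pairs, the second (chrX:51680428-51680727, minus strand) 33 and that of Hs3st1 (chr5:39644582-39644881, minus strand) 24. The deposited values do not say which Hs6st2 start the cells used.
Hs6st2 promoter 1: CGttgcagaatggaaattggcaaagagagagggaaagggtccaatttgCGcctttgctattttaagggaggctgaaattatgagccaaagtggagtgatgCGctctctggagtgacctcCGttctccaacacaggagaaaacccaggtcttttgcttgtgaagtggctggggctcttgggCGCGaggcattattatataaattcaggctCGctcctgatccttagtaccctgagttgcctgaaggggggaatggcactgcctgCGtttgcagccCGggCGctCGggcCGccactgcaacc
Hs6st2 promoter 2: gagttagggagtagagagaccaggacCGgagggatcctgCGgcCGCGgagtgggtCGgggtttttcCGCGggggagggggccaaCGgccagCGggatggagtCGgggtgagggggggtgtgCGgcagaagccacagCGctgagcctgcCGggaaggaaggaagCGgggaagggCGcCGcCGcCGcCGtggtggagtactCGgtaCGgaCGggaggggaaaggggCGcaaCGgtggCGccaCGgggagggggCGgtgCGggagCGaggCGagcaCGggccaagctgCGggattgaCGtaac
Hs3st1 promoter: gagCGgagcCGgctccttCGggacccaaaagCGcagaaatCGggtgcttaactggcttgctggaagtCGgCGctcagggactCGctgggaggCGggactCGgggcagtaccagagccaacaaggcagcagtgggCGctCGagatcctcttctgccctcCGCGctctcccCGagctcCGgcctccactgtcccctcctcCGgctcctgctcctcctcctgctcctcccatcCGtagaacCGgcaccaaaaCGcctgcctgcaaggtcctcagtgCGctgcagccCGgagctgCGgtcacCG

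Promoters were listed for 8 of the 10 genes. Fewer CG pairs than in the first Hs6st2 promoter were held by 60.4% of the 32851 promoters in the table, and fewer than in the second by 91.4%. For Hs3st1 this share was 80.0%. Searched on both strands, the TATA box letters TATAAA stood once in the first Hs6st2 promoter, at -55 from the start, and not in the other one or in that of Hs3st1. They occur in 13.6% of all promoters. The GC box letters GGGCGG stood once in the second Hs6st2 promoter, at -2, and are found in 35.7% of promoters. The study's design names Runx factors. The letters TGTGGT, a form of the core of their motif, are in 16.8% of promoters and in none of the windows of these 8 genes. Other forms of that core, such as the TGCGGT near the end of the Hs3st1 sequence above, were not searched for. The Runx2 knockout cells that the design also mentions are not analysed here. These matches describe letters only.

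By rule, the probe sets of other genes whose values over the 4 arrays ran most like those of the called genes were looked up (Euclidean distance between the 4 log2 values, each less its mean). For Hs6st2 they were Bdnf, a neurotrophin (distance 0.321), Bmp8a, a bone morphogenetic protein (0.352), and Thbd, a cofactor of thrombin (0.447). Bdnf read 8.45 and 8.26 in WTA (streptozotocin and control) and 7.04 and 6.41 in WT2. In these 3 genes the streptozotocin difference was larger in WT2 (0.63 to 1.012) than in WTA (0.19 to 0.20), whereas in Hs6st2 it was nearly equal. For Hs3st1 they were Gdf6, a growth factor of the bone morphogenetic family (0.0881), Csf3r, the receptor of granulocyte colony-stimulating factor (0.149), and B3gnt5, a lactosylceramide N-acetylglucosaminyltransferase (0.156). With 4 arrays there is little to tell such patterns apart.

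The second comparison set streptozotocin against control. None of the 10 genes passed the test, as with all probe sets (0% called, limma adjusted p under 0.05), and every member had an adjusted p of 1. Hs6st2 and Sulf1 were higher with streptozotocin in both cultures, 2 of 10 genes where 22.6% of all probe sets were. Hs6st1, Hs3st3a1, Hs3st6 and Sulf2 were lower in both, 4 of 10 where 28.5% were. The signs were opposite for Hs2st1, Hs6st3, Hs3st1 and Hs3st3b1, 4 of 10 where 47.7% were. Each culture has 1 array per arm, so the values within a culture have no test.

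Markers of other cells also had streptozotocin differences, none past the test. All 4 fibroblast or adventitial markers measured were lower with streptozotocin in both cultures (median -0.44, sums as above), where 28.5% of all probe sets were. They were Lum (-0.83), Cd34 (-0.47), Pdgfra (-0.42) and Dcn (-0.34). Of the endothelial markers 2 of 4 were higher in both cultures, Esm1 (0.41) and Selp (0.49), and of the leukocyte markers 1 of 4. Of all probe sets 22.6% were higher in both. Among the leukocyte markers, Csf1r had opposite signs, 0.45 in WTA and -0.26 in WT2. Whether such cells were present, and their part in the streptozotocin differences of the 10 genes, was not tested.

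Hs6st2 differed by nearly the same amount in both cultures. Streptozotocin minus control was 0.63 in WTA and 0.65 in WT2, that is 1.54-fold and 1.56-fold. At least 1.5-fold higher were 0.642% of probe sets in WTA and 4.82% in WT2. Its mean was 9.23 ± 1.08 with streptozotocin, against 8.60 ± 1.09 without (SD, n = 2 each). The arms overlapped because the cultures differ by more than this. The difference of 0.64 had an SE of 0.81 in the fit of treatment alone and of 0.09 with the replicate block. Left unbalanced, it was -0.14 without the WT2 control array and -0.13 without the WTA streptozotocin array.

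For Hs6st1 the difference was smaller and negative. Its mean with streptozotocin was 7.77 ± 0.07, against 8.08 ± 0.03 without (SD, n = 2 each). By culture, streptozotocin minus control was -0.33 in WTA and -0.28 in WT2. Both streptozotocin arrays lay below both control arrays. That held for 2 of the 10 genes, Hs6st1 and Sulf2, and for 13.8% of all probe sets, while both streptozotocin arrays lay above both controls in 0 of the 10 and in 10.8%. In limma's fit of treatment alone Hs6st1 had the smallest unadjusted p of the 10, 0.0291, and with the replicate block Hs6st2 did, 0.0031, against 0.0333 for Hs6st1. None of these passed after adjustment (Hs6st1 difference -0.31, adjusted p = 1). Hs6st3 differed by -0.12 in WTA and 0.20 in WT2, at levels where background weighs.

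Both sulfatases kept their sign across the cultures, in opposite directions. Sulf1 averaged 9.66 ± 0.17 with streptozotocin, against 9.21 ± 0.48 without (SD, n = 2 each). It differed by 0.24 in WTA and 0.68 in WT2. The mean difference of 0.46 was 0.11 without the WT2 control array and 0.80 without the WTA control array. The low value was the WT2 control array, at 8.86, against 9.54 to 9.79 on the other 3. Sulf2 averaged 5.61 ± 0.01 with streptozotocin, against 5.85 ± 0.12 without (SD, n = 2 each). It differed by -0.17 in WTA and -0.32 in WT2. Its streptozotocin arrays were nearly equal and both controls stood above them. Neither passed the test.

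Hs2st1 had opposite signs in the cultures. Streptozotocin minus control was -0.22 in WTA and 0.66 in WT2, where it was 1.58-fold higher. After quantile normalization it was -0.07 in WTA and 0.58 in WT2. Of its 4 values the streptozotocin array of WT2 was the highest (8.72) and that of WTA the lowest (7.21), so that the mean difference of 0.22 describes neither culture. With 1 array per arm in each culture, a difference between the cultures in this response could not be tested.

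Among the 3-O-sulfotransferases, Hs3st3a1 was lower with streptozotocin in both cultures, with differences of -0.14 in WTA and -0.40 in WT2. The control array of WT2 was its highest, at 6.15. Hs3st1, which separated the cultures, differed by -0.17 in WTA and 0.04 in WT2, and by -0.02 and -0.06 after quantile normalization. Hs3st6 differed by -0.06 and -0.10 and Hs3st3b1 by 0.05 and -0.05 in WTA and WT2.

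**Figure D4:**
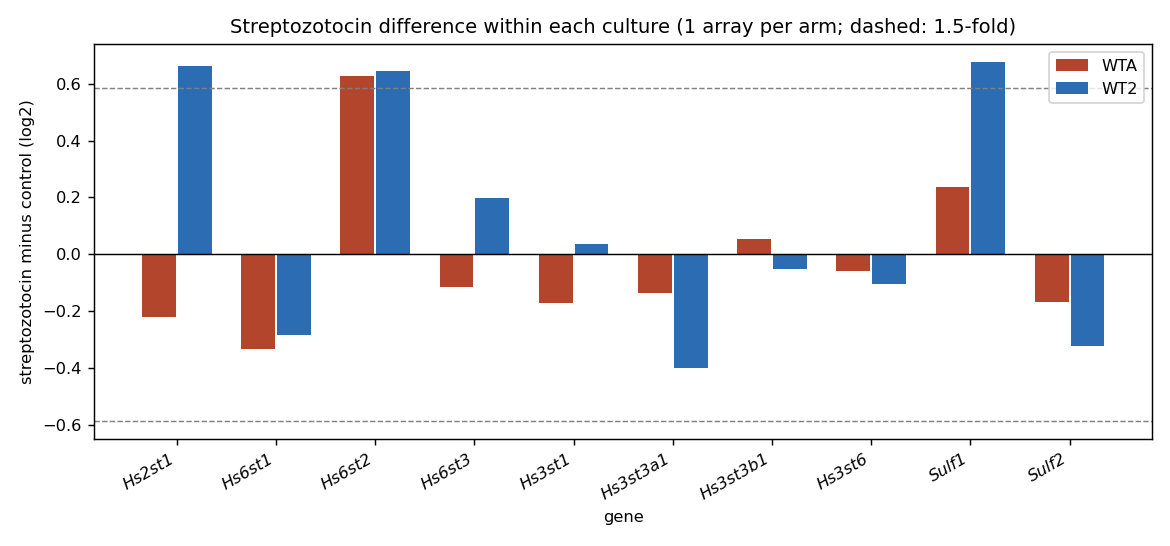
Streptozotocin minus control on the log2 scale (y axis) for each gene (x axis) within WTA (red) and WT2 (blue), each bar the difference of 2 arrays; dashed lines mark a 1.5-fold difference. Hs6st2 passes that line in both cultures (0.63 and 0.65), Hs2st1 and Sulf1 in WT2 (0.66 and 0.68).

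At least 1.5-fold higher with streptozotocin were 1 of 10 genes in WTA (Hs6st2) and 3 of 10 in WT2 (Hs6st2, Hs2st1 and Sulf1). Of all probe sets 0.642% were in WTA and 4.82% in WT2. After quantile normalization Hs2st1 fell short of that fold, which left 2 in WT2. At least 1.5-fold lower were 0 of 10 in WTA and 0 of 10 in WT2, where 1.69% and 2.49% of all probe sets were. The median size of the difference was 0.17 in WTA and 0.30 in WT2 for the 10 genes, against 0.10 and 0.13 for all probe sets. Differences were wider in WT2 over the whole array (SD 0.220 in WTA and 0.402 in WT2).

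The rest of the heparan sulfate pathway was read from 7 lists of 64 genes, 48 of them measured. Between cultures 0 of the 48 were called higher in WTA, where 1.44% of all probe sets were. Called lower in WTA were 2 of the 48, where 0.803% of all probe sets were. Both are in the list of fibroblast growth factors and their receptors, whose complexes heparan sulfate holds together. Fgf10 differed by -1.24 and its receptor Fgfr2 by -1.05 (limma adjusted p = 0.0445 each). Both adjusted p-values lie just inside the threshold, and the number of culture calls depended on the settings. Of all probe sets 28 were called here, 8 after quantile normalization and 2 among those above the median mean. Fgf10 read 8.75 and 8.63 in WTA (streptozotocin and control) and 9.84 and 10.02 in WT2. The median culture difference of that list of 9 was 0.10, since 6 of 9 were higher in WTA. Fgf18 differed by 0.69 between cultures (limma adjusted p = 0.0863). With streptozotocin 0 of the 48 passed, and Fgf18 (-0.52) and Fgfr2 (-0.43) had the largest differences of that list.

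None of the genes of the steps before O-sulfation passed the test between cultures. Of the 10 chain-building genes measured 6 were higher and 4 lower in WTA (median 0.01), with B3galt6, a linker galactosyltransferase, at -0.60 and Extl2, an exostosin-like glycosyltransferase, at -0.44 as the largest. All 5 genes of N-sulfation and epimerisation were lower in WTA (median -0.21), among them Ndst1 (-0.29) and the epimerase gene Glce (-0.40), whose product prepares the acid that Hs2st1 sulfates. With streptozotocin the largest mean differences of those 5 were -0.24 for Ndst1 and 0.06 for Ndst4, both N-deacetylase and N-sulfotransferase genes. Ndst4 read 3.46 to 3.735, below the lower quartile. Glce had opposite signs in the cultures, 0.23 in WTA and -0.24 in WT2, which cancel in its mean. The 3-O-sulfotransferases outside the list above, Hs3st2 and Hs3st5, differed by 0.05 and -0.04 between cultures and by -0.03 and 0.10 with streptozotocin. Of the sulfate donor genes 3 were measured, and Papss2, a synthase of the donor PAPS, differed by 0.40 between cultures and, with streptozotocin, by 0.55 in WTA and -0.46 in WT2. Papss1, the other synthase, differed by -0.26 between cultures and -0.16 with streptozotocin, and Slc35b3, a Golgi transporter of PAPS, by 0.01 and 0.05.

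Core proteins and breakdown genes had 0 genes past either test. Of 13 core protein genes 9 were lower in WTA (median -0.27), with Tgfbr3, betaglycan, at -0.65 and Gpc1, a glypican, at -0.57. Gpc3 and Gpc6 had the largest streptozotocin differences there, -0.50 and -0.42. Of the 6 breakdown genes Hpse, the heparanase that cuts the chain outside the cell, stood out. It read 6.52 and 6.67 in WTA (streptozotocin and control) and 8.07 and 7.16 in WT2, a culture difference of -1.02 (limma adjusted p = 0.219). With streptozotocin it differed by -0.15 in WTA and 0.90 in WT2, the signs seen at Hs2st1. Idua, a lysosomal iduronidase, differed by -0.19 between cultures and -0.14 with streptozotocin. In the chain-building list Ext1, a polymerase of the chain, had the largest streptozotocin difference, with 0.20 in WTA and 0.72 in WT2, followed by B3galt6 (mean -0.25).

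**Figure D5:**
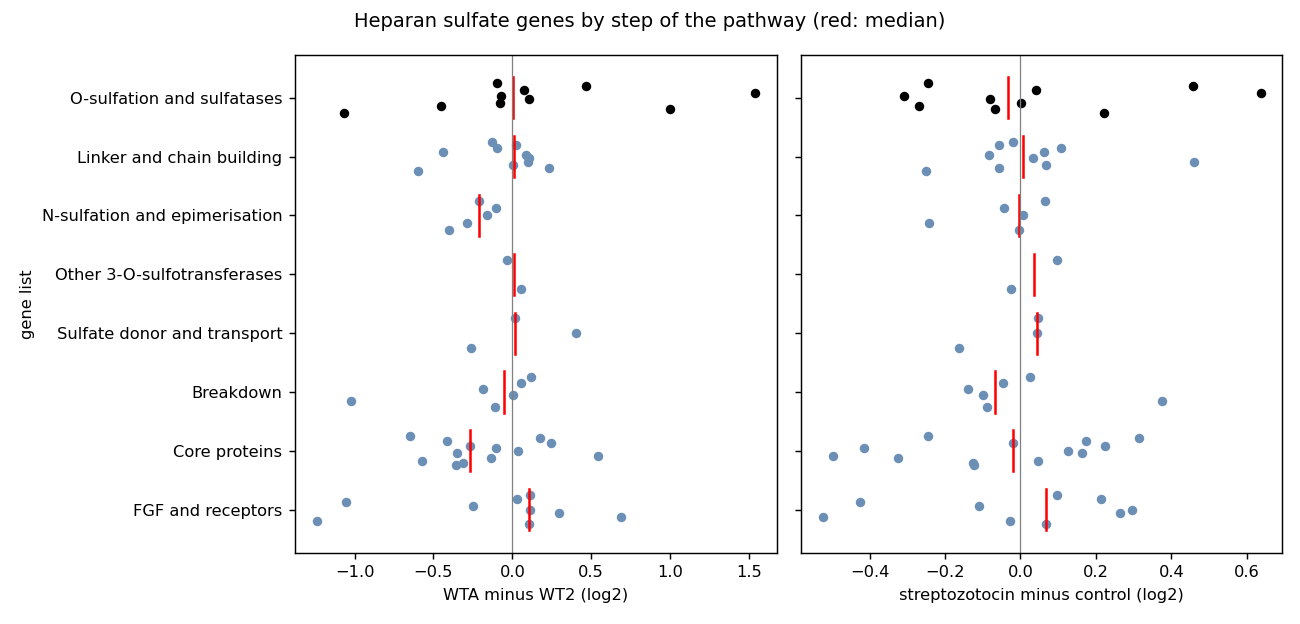
Log2 differences WTA minus WT2 (left) and streptozotocin minus control (right) for each measured gene (points), by step of the heparan sulfate pathway (rows), with the median of each list in red; the 10 O-sulfation and sulfatase genes are black. The medians lie between -0.27 and 0.10 in the left panel, and Hs6st2 at 1.54 is the farthest point to the right.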

How the data were processed

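Trizol RNA of 4 VSMC samples was hybridised as biotin-labelled cRNA, per the labels' protocols. The deposited values are on the log2 scale. Per the submitters' processing notes RMA was used; its version and settings and the genome build are not given here. By default RMA equalises the arrays' distributions, so a shift shared by most genes would not be seen.

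The accession that opens each identifier, without its version, was looked up in RefSeq (GRCm38.p6, for names and promoters). Of 1246 probe sets 963 had a symbol. The 10 members, the lists and the tests were chosen with earlier results of these data known. Named are all members, the 3 nearest patterns to each called member, and from each of the 7 pathway lists the called genes and those with the 2 largest differences of each comparison. Lists used 1 probe set per gene, that with the highest mean.

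Both comparisons were fitted with limma 3.58.1 (R 4.3.3, lmFit and eBayes) on all probe sets with Benjamini-Hochberg adjustment: treatment alone (2 residual and 1.68 prior degrees of freedom), and treatment with culture for the culture difference (1 and 2.73). Intervals are 95% intervals of these fits. The fits were also run on simulated data, whose outcome is not given here. The data simulated for the streptozotocin fit held no difference between cultures, unlike the arrays, so they do not show how that fit performs on these arrays. The replicate number marks the same culture in both arms, so it pairs the arrays; same-numbered arrays deviated together (correlation 0.600 over probe sets). Other settings tried were the replicate block, leaving out each array, median centring, quantile normalization, only probe sets with a mean above the median, an intensity trend, a robust fit, the culture alone in the fit, and other thresholds.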

Additional observations from a re-analysis of the deposited data

Results flagged for a closer look

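Streptozotocin minus control had opposite signs in the cultures for 4 genes, and with 1 array per arm in each culture the difference was not tested. For Hs2st1 it was -0.22 in WTA and 0.66 in WT2. The smaller pairs were -0.12 in WTA and 0.20 in WT2 for Hs6st3, -0.17 and 0.0354 for Hs3st1, and 0.0543 and -0.0510 for Hs3st3b1. After quantile normalization Hs3st1 was below 0 in both, at -0.02 in WTA and -0.06 in WT2. Opposite signs were found in 47.7% of all probe sets.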

How the results depend on the processing

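Streptozotocin against control gave 0 called probe sets in every setting run, the replicate block included (0 called, smallest adjusted p 0.536, 80 at an unadjusted p under 0.05 against 25 without it), so the block changed no call. In limma the 95% interval of Hs6st2 with the block was 0.37 to 0.90 (adjusted p = 0.585), against -1.68 to 2.95 without it. The culture comparison called 28 probe sets, but 13 with the culture alone, 8 after quantile normalization, 2 among probe sets above the median mean, 49 in the robust fit, 64 at an adjusted p under 0.1, and 0 to 18 with 1 array left out, where the treatment term was dropped too. Of the 2 called genes, 1 was called with the culture alone (Hs3st1), 1 after quantile normalization (Hs6st2), 0 among brighter probe sets and 0 to 0 with 1 array left out. Genes at least 1.5-fold apart with streptozotocin numbered 3 in WT2, with 2 after quantile normalization, 5 at a log2 difference of 0.32 and 0 at 2-fold, and 1 in WTA, with 2 at a log2 difference of 0.32 and 0 at 2-fold. With 1 array left out, which unbalances the cultures, streptozotocin minus control ranged from -0.53 to 0.98 for Hs2st1, -0.14 to 1.41 for Hs6st2, -0.0736 to 0.156 for Hs6st3, -0.62 to 0.48 for Hs3st1, -0.562 to 0.0237 for Hs3st3a1 and -0.0632 to 0.0665 for Hs3st3b1. For Hs3st3b1 it was -0.0087 after quantile normalization. WTA minus WT2, then without the treatment term, ranged from -0.24 to 0.10 for Hs6st1, -0.0264 to 0.172 for Hs6st3 and -0.256 to 0.0666 for Sulf2. With 1 array per condition, small differences were not resolved, and dim probe sets such as Hs6st3 carry little signal over background.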
